A study of Homo sapiens with 16 samples.

Results

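The genes described here are 9 genes of HLA class I antigen presentation: HLA-B, HLA-C, HLA-E, HLA-F, B2M, TAP1, TAP2, TAPBP and NLRC5. They were taken by gene symbol from the 26475 symbols of the deposited table, and all 9 were found and passed the low-count filter. The libraries came from A375 MA2-Luc, a human melanoma cell line, transferred behind the eye of NSG mice (250000 cells) and taken from lung metastases. There were 4 groups of 4 libraries, namely inhibitors on a ketogenic diet, inhibitors on a high fat diet, no inhibitors on a ketogenic diet and no inhibitors on a high fat diet. Treated mice received, per the labels, inhibitors of the BRAF kinase together with inhibitors of MEK 1/2, by oral gavage over 5 weeks at 3 doses a week. The labels name neither compounds nor doses, and do not say whether the untreated mice were gavaged, how old the mice were, or whether each replicate was its own mouse. Tests therefore rest on library-to-library spread, which may be technical. The host and the cell line are common to all groups. The NSG strain lacks T cells, B cells and NK cells of its own and keeps myeloid cells. The series text also speaks of culture, and whether cells were cultured before extraction is not given in the sources used here.

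Class I molecules carry peptides from inside the cell to its surface, where CD8 T cells and NK cells read them. A heavy chain (HLA-B, HLA-C, HLA-E or HLA-F) pairs with the light chain beta-2-microglobulin, encoded by B2M. TAP1 and TAP2 form the transporter that moves peptides into the endoplasmic reticulum, and TAPBP (tapasin) holds an empty class I molecule at that transporter. NLRC5 is the transactivator that works through the S, X and Y boxes of class I promoters, and interferons raise the whole set through an interferon response element. Of the 9 genes, 7 lie in the major histocompatibility complex on chromosome 6, between 29723434, the start of HLA-F, and 33314078, the end of TAPBP (GRCh38.p14). B2M lies on chromosome 15 (44711517 to 44718145) and NLRC5 on chromosome 16 (56989557 to 57083520). Tumours often lower these genes and so become less visible to T cells.

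The promoters are shown because they carry the elements through which these genes are known to be controlled together. RefSeq promoter sequence (GRCh38.p14, the 250 bases before each gene's start) was on hand for 7 of the 9 genes, all but HLA-E and NLRC5. The windows for HLA-B (chr6:31357224-31357359, minus strand), HLA-C (chr6:31272137-31272272, minus strand) and B2M (chr15:44711337-44711472, plus strand) cover 136 bases, positions -180 to -45 from the start, 5′ to 3′. Capitals mark matches to the interferon regulatory factor (IRF) core AANNGAAA, the CRE half-site TGACG of the X box region, the CCAAT box and the kappaB consensus, each on either strand.
HLA-B: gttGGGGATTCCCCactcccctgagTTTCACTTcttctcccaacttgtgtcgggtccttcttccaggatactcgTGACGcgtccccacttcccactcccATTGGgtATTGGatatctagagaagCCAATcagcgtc
HLA-C: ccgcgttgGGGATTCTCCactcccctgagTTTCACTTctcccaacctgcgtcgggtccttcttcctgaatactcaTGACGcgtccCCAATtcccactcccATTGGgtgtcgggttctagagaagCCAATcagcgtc
B2M: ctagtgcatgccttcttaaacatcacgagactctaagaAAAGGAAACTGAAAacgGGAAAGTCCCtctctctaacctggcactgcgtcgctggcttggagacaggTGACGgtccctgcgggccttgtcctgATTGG

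For HLA-F (chr6:29723270-29723299, plus strand), TAP1 (chr6:32853817-32853846, minus strand) and TAP2 (chr6:32838780-32838809, minus strand) the 30 bases around the IRF core are shown, to set beside the same element above.
HLA-F: ccccagagTTTCTCTTtctctcccaacccg
TAP1: gcggccgcTTTCGATTTCGCTTtcccctaa
TAP2: ggctggggAAGCGAAAGCGAAAgctgcccg

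The IRF core was found in 7 of 7 of these promoters, against 20.3% of the 35116 promoters in the table. B2M, TAP1, TAP2 and TAPBP each held 2 overlapping copies. The kappaB consensus was found in 5 of 7, against 5.21% of all promoters, and was not found in HLA-F or TAP2. The CCAAT box was found in 5 of 7 (32.0% of all promoters), and the CRE half-site in HLA-B, HLA-C, B2M and TAP2, or 4 of 7 (21.2% of all promoters). These matches describe letters in the windows and not binding. The motifs can overlap one another.

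Totals ran between 37.1 and 77.2 M estimated counts per library (M, mega). Ribosomal RNA, which poly-A selection is meant to leave out, took 4.10% to 8.37% of the counts in ketogenic libraries with inhibitors, 15.01% to 19.97% in high fat libraries with inhibitors, 15.2% to 33.7% in ketogenic libraries without inhibitors and 21.7% to 50% in high fat libraries without inhibitors. Its part in the results was not tested apart from the fits named beside them. The 8 melanoma markers summed to between 883 and 1112 CPM (counts scaled to library size, with TMM factors) in every library. SOX10, a lineage factor of melanocytes, gave most of this with group means of 776.9 to 824 CPM, followed by MITF with 105 to 122 CPM, while the pigment genes PMEL, MLANA, TYR, TYRP1 and DCT averaged at most 3.45 CPM in any group. The 10 leukocyte markers summed to 4.55 to 7.85 CPM in ketogenic and 6.70 to 8.58 CPM in high fat libraries with inhibitors, and to 4.46 to 8.46 CPM in ketogenic and 0.840 to 1.95 CPM in high fat libraries without inhibitors. MS4A1, a marker of B cells, was at 0 in all 16 libraries. The 7 lung epithelium markers summed to at most 2.97 CPM. CORO1A carried most of the leukocyte sum in the first 3 of these groups, with means of 4.78, 5.28, 6.05 and 0.808 CPM in the same order, while PTPRC, which marks all leukocytes, averaged at most 0.284 CPM in any group. Leukocytes of the host would be mouse cells and not a source of human HLA transcripts. Whether mouse reads were taken out is not given, and the part of such reads in the results was not tested. In bulk libraries, fewer cells of a type and less RNA per cell cannot be told apart.

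Per kb of transcript, B2M and HLA-B were the highest of the 9 and NLRC5 the lowest. B2M averaged 404.7 CPM per kb over the 16 libraries, HLA-B 340.2, HLA-C 163.6, HLA-E 56.8, TAPBP 22.7, TAP2 20.8, TAP1 14.7, HLA-F 6.41 and NLRC5 1.75. The light chain stood above HLA-B in 14 of 16 libraries, and their ranges overlapped in 3 of the 4 groups. TAPBP and TAP2 could not be ordered either, since TAPBP was higher in 10 of 16 libraries. TAP2 was above TAP1 in 15 of 16 libraries, and the ranges of these transporter subunits overlapped only in high fat libraries without inhibitors. Every other neighbour in this order was apart in 16 of 16 libraries.

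**Figure D1:**
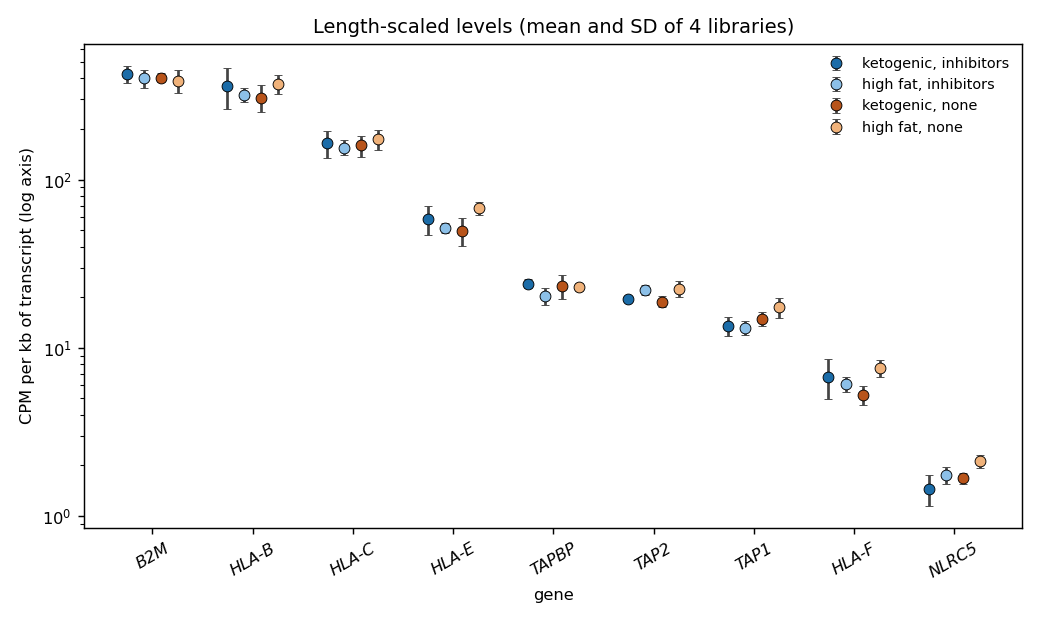
Length-scaled level (CPM per kb of principal transcript, log axis) of each gene in the 4 groups, as the mean of 4 libraries with SD. The order of the genes runs downward between B2M at 404.7 and NLRC5 at 1.75 CPM per kb over all libraries, and the groups of one gene lie close together beside the distances between genes.

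The classical heavy chains HLA-B and HLA-C, which present peptides to CD8 T cells, varied within groups as much as between them. With inhibitors, HLA-B had 707, 423.9, 433.5 and 673 CPM in ketogenic libraries and 521, 445, 549 and 469 CPM in high fat libraries. Without inhibitors it had 404, 438, 458 and 602 CPM in ketogenic libraries and 642.5, 537, 490.1 and 627 CPM in high fat libraries. Ketogenic libraries 1 and 4 with inhibitors were high and libraries 2 and 3 low, and all 4 groups overlapped. HLA-C ranged over 214 to 309.5 CPM in ketogenic libraries with inhibitors, 215 to 267 in high fat libraries with inhibitors, 219 to 296 in ketogenic libraries without and 230.4 to 306 in high fat libraries without inhibitors. HLA-C reached its highest value of all 16 libraries in the same ketogenic library with inhibitors as HLA-B.

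HLA-E, a nonclassical heavy chain that NK cell receptors of the CD94 and NKG2 family read, was on average highest in high fat libraries without inhibitors. With inhibitors it had 189.6, 123, 134.5 and 160.6 CPM in ketogenic libraries and 142.5, 122, 142 and 132 CPM in high fat libraries. Without inhibitors HLA-E had 126, 100.5, 129.8 and 159.6 CPM in ketogenic libraries and 193, 169, 183 and 157 CPM in high fat libraries. On the high fat diet all 4 libraries with inhibitors lay below all 4 without. The ketogenic libraries without inhibitors lay below those of the high fat diet except for library 4.

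HLA-F, a nonclassical heavy chain with a narrow tissue range, had 13.5, 9.14, 7.97 and 13.5 CPM in ketogenic and 11.1, 8.96, 10.4 and 9.24 CPM in high fat libraries with inhibitors. Without inhibitors HLA-F had 8.40, 7.47, 8.36 and 10.2 CPM in ketogenic and 12.4, 12, 10.7 and 14.2 CPM in high fat libraries. All 4 untreated ketogenic libraries lay below all 4 untreated high fat libraries. Among libraries with inhibitors the diets overlapped. HLA-F overlaps the antisense gene HLA-F-AS1, and without the strand setting, which is not given in the sources used here, their reads cannot be told apart.

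B2M had 759, 656, 649 and 828 CPM in ketogenic and 632, 629, 812 and 661 CPM in high fat libraries with inhibitors. Without inhibitors B2M had 656, 663, 688 and 755 CPM in ketogenic and 763, 677.5, 698 and 514 CPM in high fat libraries. The groups overlapped throughout, and the lowest value of all was high fat library 4 without inhibitors. That library held the highest HLA-F, TAP1 and NLRC5 values of the 16.

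TAP1 had 42.4, 34.2, 37.3 and 45.6 CPM in ketogenic and 34.6, 37.1, 43.0 and 40.8 CPM in high fat libraries with inhibitors. Without inhibitors TAP1 had 40.2, 48.0, 40.3 and 47.0 CPM in ketogenic and 52.0, 48.5, 44.7 and 61.3 CPM in high fat libraries. On the high fat diet every library with inhibitors lay below every library without. TAP2 ranged over 46.5 to 50.89 CPM in ketogenic and 50.91 to 59.98 CPM in high fat libraries with inhibitors, and over 43.2 to 51.75 CPM in ketogenic and 51.2 to 64.9 CPM in high fat libraries without. TAPBP ranged over 42.3 to 48.05 CPM in ketogenic and 33.3 to 43.7 CPM in high fat libraries with inhibitors, and over 34.65 to 50.5 CPM in ketogenic and 40.6 to 46.8 CPM in high fat libraries without. TAP1 shares its place with PSMB9 and PSMB8-AS1 on the opposite strand, with the same limit as HLA-F.

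NLRC5 had 12.5, 10.1, 9.66 and 7.41 CPM in ketogenic and 13.6, 10.4, 12.2 and 11.49 CPM in high fat libraries with inhibitors. Without inhibitors NLRC5 had 10.5, 11.95, 10.97 and 12.4 CPM in ketogenic and 13.4, 14.99, 13.5 and 15.96 CPM in high fat libraries. The 4 untreated high fat libraries were all above the 4 untreated ketogenic libraries, while the groups with and without inhibitors overlapped on each diet.

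**Figure D2:**
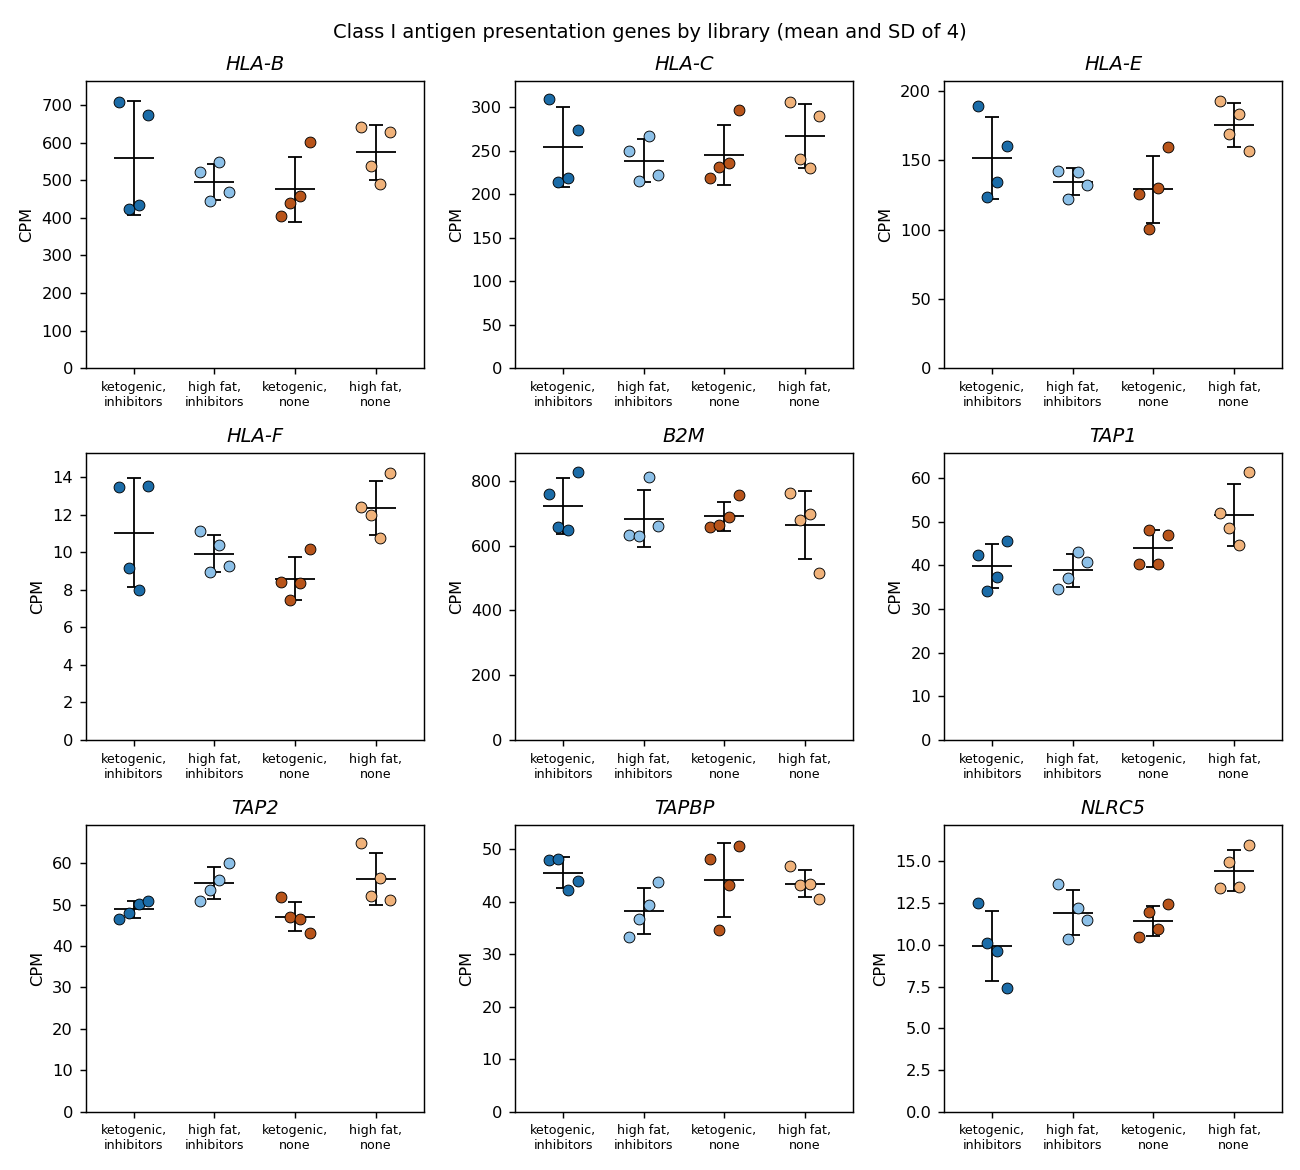
Level of each gene (CPM on TMM-scaled library sizes, axis starting at 0) in every library, with the mean and SD of the 4 libraries of a group. HLA-E and TAP1 lie lower in all high fat libraries with inhibitors than in all high fat libraries without, and B2M overlaps between all groups.

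On the high fat diet, inhibitors went with lower HLA-E and TAP1, and the other 7 genes did not pass the test. HLA-E averaged 135 ± 9.62 CPM with inhibitors and 175 ± 15.9 CPM without (SD, n = 4 each), a log2 fold change of -0.38 (SE 0.14, edgeR quasi-likelihood adjusted p = 0.0382). TAP1 averaged 38.9 ± 3.75 CPM with inhibitors and 51.6 ± 7.09 CPM without, a log2 fold change of -0.41 (SE 0.12, edgeR adjusted p = 0.0105). That is 2 of 9 genes called, both lower, where 42.3% of the 16012 genes tested passed in this comparison. The median size of change was 0.21 on the log2 scale for the 9 genes and 0.40 over all genes tested. The largest change among the genes that did not pass was in HLA-F (-0.32, 95% interval -0.67 to 0.04), and the 95% interval ran between -0.57 and 0.15 for HLA-B and between -0.23 and 0.32 for B2M. A p that misses the threshold does not show that levels were equal. The call of HLA-E ended when any of high fat libraries 1, 2 or 3 without inhibitors or 2, 3 or 4 with inhibitors was left out (edgeR adjusted p between 0.0561 and 0.102), while that of TAP1 held each time. The HLA-E call also ended with the ribosomal RNA share in the model (log2 -0.46, edgeR adjusted p = 0.0617) and without the 3 libraries of over 30% ribosomal RNA (log2 -0.39, edgeR adjusted p = 0.0973), with a fold change no smaller than over all libraries, and TAP1 stayed called in both. On this diet the share did not overlap between libraries with inhibitors (at most 19.97%) and without (at least 21.71%). The model with the share can therefore hardly tell it and the inhibitors apart. The 3 libraries left out were high fat 2 and 3 and ketogenic 2, all without inhibitors. Only high fat libraries 1 and 4 then stood for the untreated group, and library 4 held the highest TAP1 of the 16. Scaling on library size alone, which counts ribosomal RNA and set the median gene at 0.25, left HLA-E at -0.10 and TAP1 at -0.16 and called neither.

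On the ketogenic diet none of the 9 genes passed, where 1.74% of all genes tested did. HLA-F averaged 11.04 ± 2.91 CPM with inhibitors and 8.60 ± 1.13 CPM without (SD, n = 4 each; log2 0.36, SE 0.17), and was the 1 gene with an unadjusted p under 0.05 (edgeR adjusted p = 0.256). HLA-E averaged 152 ± 29.6 CPM with inhibitors and 129 ± 24.2 CPM without, a log2 difference of 0.24 with a 95% interval of -0.06 to 0.53. NLRC5 averaged 9.92 ± 2.09 CPM with inhibitors and 11.45 ± 0.905 CPM without. The intervals of all 9 lay between -0.50 and 0.72 on the log2 scale. The count was 0 in each alternative run, limma and DESeq2 among them.

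Among libraries without inhibitors, the ketogenic diet went with lower HLA-E and HLA-F. HLA-E averaged 129 ± 24.2 CPM on the ketogenic and 175 ± 15.9 CPM on the high fat diet (log2 -0.44, SE 0.14, edgeR adjusted p = 0.0464). HLA-F averaged 8.60 ± 1.13 CPM on the ketogenic and 12.35 ± 1.44 CPM on the high fat diet (log2 -0.52, SE 0.17, edgeR adjusted p = 0.0473). These were 2 of 9 genes called, where 13.5% of all genes tested passed. TAP2 averaged 47.1 ± 3.53 CPM on the ketogenic and 56.2 ± 6.26 CPM on the high fat diet (log2 -0.25, edgeR adjusted p = 0.0691), and NLRC5 11.45 ± 0.905 CPM on the ketogenic and 14.5 ± 1.24 CPM on the high fat diet (log2 -0.34, edgeR adjusted p = 0.115). B2M, the shared light chain, averaged 691 ± 44.9 CPM on the ketogenic and 663 ± 106 CPM on the high fat diet, with a 95% interval of -0.21 to 0.33 for the log2 difference. Both calls sit close to the threshold. That of HLA-E ended without any of libraries 1, 2 and 3 of either diet, and that of HLA-F without any of these or high fat library 4 (edgeR adjusted p between 0.0615 and 0.159). Without the 3 libraries of over 30% ribosomal RNA HLA-E was at log2 -0.35 (edgeR adjusted p = 0.351) and HLA-F at -0.58 (0.210). In that setting 0 of 16367 genes passed in edgeR (2668 at an unadjusted p under 0.05), so every call of this comparison was lost there. Fewer libraries were left in both groups, so a lost call does not show that the change was absent. This comparison shares its high fat libraries with the test of inhibitors on that diet, so the lower HLA-E in both rests in part on the same 4 libraries.

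Among libraries with inhibitors none of the 9 genes passed between diets, where 0.169% of all genes tested did. TAPBP averaged 45.5 ± 2.93 CPM on the ketogenic and 38.3 ± 4.37 CPM on the high fat diet (log2 0.25, 95% interval 0.01 to 0.49, edgeR adjusted p = 0.360), and was the 1 gene with an unadjusted p under 0.05. TAP2 averaged 48.8 ± 2.02 CPM on the ketogenic and 55.1 ± 3.85 CPM on the high fat diet with ranges that just missed each other (log2 -0.17, edgeR adjusted p = 0.434). None of the 9 was called under any alternative run, limma and DESeq2 included.

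The inhibitor effect itself was compared between diets, as the ketogenic minus the high fat log2 fold change. None of the 9 differences passed in edgeR, where 9.02% of all genes tested did, and 2 had an unadjusted p under 0.05. HLA-E differed by 0.62 (SE 0.20, 95% interval 0.20 to 1.04, edgeR adjusted p = 0.0593) and HLA-F by 0.68 (SE 0.24, 95% interval 0.18 to 1.18, edgeR adjusted p = 0.0751). All 9 differences were above 0, though those of B2M (0.02) and NLRC5 (0.07) turned below 0 under some of the alternatives run. Both HLA-E and HLA-F passed with DESeq2 (adjusted p of 0.0319 and 0.0441). HLA-E passed in edgeR when ketogenic library 4 or high fat library 4 without inhibitors, or ketogenic library 2 or 3 with inhibitors, was left out (edgeR adjusted p between 0.0224 and 0.0485), and HLA-F when ketogenic library 4 without or 3 with inhibitors was (0.0475 and 0.0310). In those runs the share of all genes called was also higher, between 9.41% and 13.2%. Of the 27 alternatives run for this difference, HLA-E passed in 7 and HLA-F in 3, so neither difference is taken as shown.

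**Figure D3:**
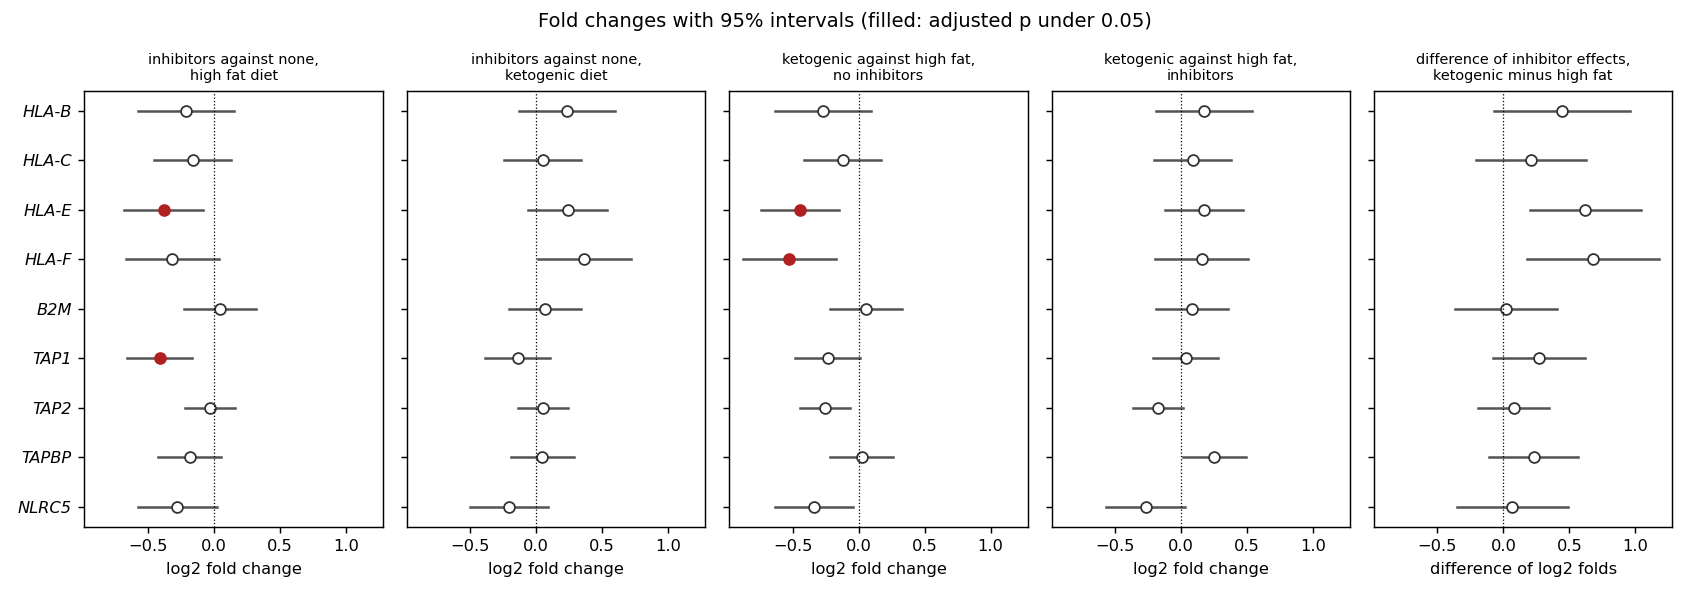
Log2 fold change of each gene (x axis) with its 95% interval in the 4 comparisons of groups, and the difference of the inhibitor effects between diets at the right. Filled points passed an adjusted p of 0.05 (HLA-E and TAP1 for inhibitors on the high fat diet, HLA-E and HLA-F for diet without inhibitors), and most open points have intervals that reach across 0.

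Over the 16 libraries the heavy chains varied together and the transporter subunits did so little. As a description, Pearson's r of log2 CPM was 0.94 between HLA-B and HLA-C, 0.89 between HLA-B and HLA-F, 0.82 between HLA-E and HLA-F and 0.78 between HLA-B and HLA-E (n = 16 libraries). For deviations from the group means these were 0.96, 0.91, 0.69 and 0.75 in the same order. HLA-B, HLA-C, HLA-E and HLA-F are near-identical copies in parts of their sequence, and their estimated counts were not whole in any library, as happens where RSEM divides a read among genes. TAP1 and TAP2 were not whole in any library either. The part of divided reads in the likeness of the heavy chains was not tested. B2M, whose values were whole in all 16 libraries, had r of 0.39 with HLA-B and 0.15 with HLA-F. TAP1 and TAP2, which work as 1 complex, had r of 0.16, while TAP1 had 0.57 with HLA-B and 0.61 with HLA-C. NLRC5 had r between 0.24 and 0.36 with the 4 heavy chains and -0.37 with B2M. The libraries also share depth and ribosomal RNA content.

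**Figure D4:**
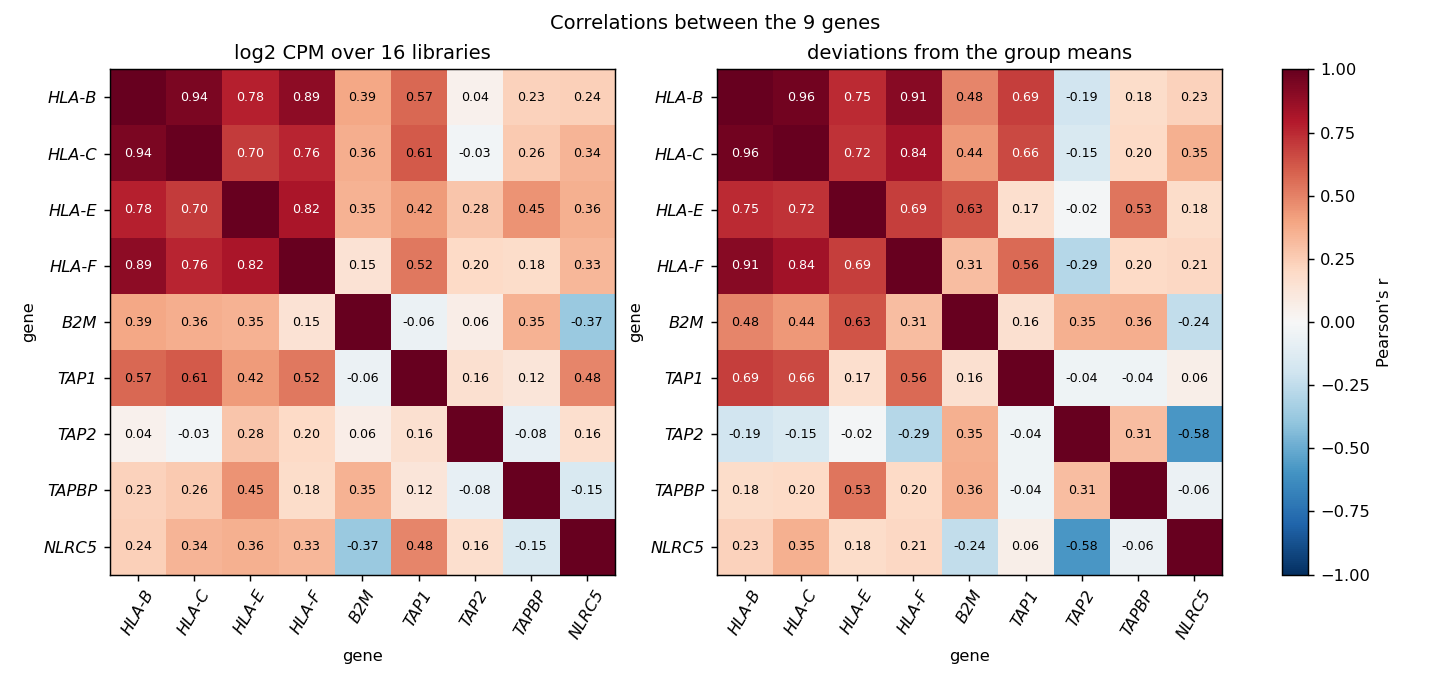
Pearson's r between each pair of the 9 genes, for log2 CPM over 16 libraries at the left and for deviations from the group means at the right. The block of HLA-B, HLA-C, HLA-E and HLA-F stands at 0.70 or more at the left and 0.69 or more at the right, while TAP2 and NLRC5 have low or negative values with most of the others.

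Of the 9 genes, 5 varied less over the libraries than the median gene and 4 more. The SD of log2 CPM over 16 libraries was lowest for TAP2 (0.15), B2M (0.17) and TAPBP (0.17) and highest for NLRC5 (0.27) and HLA-F (0.29), against a median of 0.25 over the 10967 genes with a mean of at least 5 CPM. Of those genes, 87.7% varied more than TAP2 and 37.2% more than HLA-F. The 5 genes most like the mean z-score of the 9, by Pearson's r over 16 libraries, were RPS25 (0.94), RPL6 (0.93), RAB24 (0.93), COMMD6 (0.92) and RPS13 (0.92). RPS25, RPL6 and RPS13 encode ribosomal proteins.

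The balance within the transporter and between heavy and light chain was looked at as a ratio of CPM, chosen after the values were seen. Exact permutation tests of 8 such comparisons, where the smallest possible p was 0.0286, gave adjusted p of 0.229 or more. The ratios are given as a description. TAP1 over TAP2 was 0.680, 0.692, 0.768 and 0.681 in high fat libraries with inhibitors and 0.801, 0.931, 0.792 and 1.197 in those without, with no overlap. On the ketogenic diet TAP1 over TAP2 averaged 0.817 ± 0.101 with inhibitors and 0.939 ± 0.142 without (SD, n = 4 each), and the groups overlapped. HLA-B over B2M averaged 0.685 ± 0.0780 in ketogenic and 0.889 ± 0.228 in high fat libraries without inhibitors, with ranges that overlapped.

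Over all the pathway lists described next, 43 of 112 tested genes passed for inhibitors on the high fat diet, or 38.4%, beside the 42.3% of all genes tested. The counts of the single lists below are read against that share and set no list apart. Of the genes that feed or assist the 9, several rose where HLA-E and TAP1 fell. In the immunoproteasome, which cuts peptides for class I, the inducible catalytic subunit PSMB10 and PSME2 (log2 0.41) rose, 2 of 5 genes. The other inducible catalytic subunits, PSMB8 and PSMB9, were not among them. PSMB10 averaged 15.75 ± 1.07 CPM with inhibitors and 10.8 ± 1.2 CPM without (log2 0.54, SE 0.14, edgeR adjusted p = 0.00651), and PSMB8 35.9 ± 1.76 CPM with and 38.1 ± 5.65 CPM without. Of the 3 constitutive catalytic subunits PSMB6 rose (log2 0.75, SE 0.18, edgeR adjusted p = 0.00319). Among 7 genes of peptide loading and trimming 3 rose, namely the chaperone CALR (log2 0.73), the tapasin relative TAPBPL (log2 0.85) and the disulphide isomerase PDIA3 (log2 0.28), and none fell. CALR averaged 874 ± 21.2 CPM with inhibitors and 526 ± 33.7 CPM without. Among the 6 tested genes of class I turnover 3 rose (SPPL3, SUSD6 and TMEM127) and MARCH9, a ubiquitin ligase, fell (log2 -0.43). SUSD6 and TMEM127 are known to bring class I molecules to degradation.

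Of the upstream lists on that diet, most held both genes that rose and genes that fell. Among 8 factors of the S, X and Y boxes 2 rose (ATF1 and NFYA) and 2 fell (RFX5, log2 -0.28, and RFXAP, log2 -0.39). Of 14 genes of interferon receptors and JAK-STAT signalling, IFNAR1 rose (log2 0.53, SE 0.12) and IFNGR1, a chain of the interferon gamma receptor, fell (log2 -0.45, SE 0.11). Of 22 interferon-stimulated genes 6 rose, led by IFIT3 (log2 1.5, SE 0.15, edgeR adjusted p = 8.48e-06) and ISG15 (log2 1.28), and 4 fell, DTX3L (log2 -0.74) with the smallest p among them. Of 9 IRF and NF-kappaB factors, IRF3 and NFKB1 rose. In the Polycomb complex PRC2, which is known to silence class I genes, EZH2 rose (log2 1.01, SE 0.22), SUZ12 rose (log2 0.30) and EZH1 fell (log2 -0.75, SE 0.10). The median log2 change was 0.09 for the interferon-stimulated list and 0.06 for the receptor list, against -0.03 over all genes tested.

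Other presentation genes on that diet also went both ways. Of 11 class II genes the transactivator CIITA rose (log2 0.66) with HLA-DMA (log2 0.42), while HLA-DQA1 (log2 -0.84) and HLA-DPB1 (log2 -0.51) fell. MR1, a class I-like molecule that also binds beta-2-microglobulin, fell (log2 -0.96, SE 0.25), as did the class I pseudogenes HLA-J and HLA-L in 2 of 3 tested. Of 9 tested ligands of NK receptors MICA, MICB and ULBP2 rose, and of 6 tested checkpoint ligands CD276 rose (log2 0.65) and LGALS9 fell. Of the 33 calls named by rule in this comparison, 13 ended when some single library was left out, at edgeR adjusted p up to 0.121. Those were PSME2, PDIA3, RFX5, NFYA, ATF1, NFKB1, IRF3, SUZ12, HLA-J, MICB, ULBP2, MICA and LGALS9, and each of the 8 libraries ended at least 1 of them. Without the 3 libraries of over 30% ribosomal RNA 19 of the 33 ended, these 13 with PSMB10, ISG15, TMEM127, SUSD6, HLA-L and HLA-DMA, and 23.6% of all genes passed. With the ribosomal RNA share in the model 12 of the 33 ended, and 30.3% of all genes passed. Scaling on library size alone ended the calls of IFNGR1, DTX3L, RFX5, MR1, HLA-L, HLA-J, HLA-DQA1 and LGALS9, all of them lower with inhibitors on the TMM scale. The leukocyte sums given above, 6.70 to 8.58 CPM with inhibitors and 0.840 to 1.95 CPM without, stood beside these changes. Of the 7 endothelial markers KDR averaged 75.1 ± 4.71 CPM with inhibitors and 21.8 ± 8.68 CPM without (log2 1.78), and carried nearly all of their sum, while PECAM1 averaged 0.726 CPM with and 0.591 CPM without, and CDH5, which defines endothelium, 0.0169 CPM with and 0 CPM without. Of the 6 erythroid and plasma markers TTR averaged 42.8 ± 16.04 CPM with inhibitors and 1.31 ± 0.491 CPM without (log2 5.04), while HBB, HBA2 and ALB averaged at most 0.603 CPM in any group. The endothelial and plasma sums rest mostly on single genes, while LCP1 also rose among the leukocyte markers (log2 2.01). APOA1 and HBA1 also rose, from means of at most 0.108 CPM without inhibitors. CD68 (macrophages, log2 -0.64), AGER (lung epithelium, log2 -1.02) and DCT (melanoma, log2 -2.16) fell. Of the fibroblast markers COL3A1 rose (log2 2.08) and PDGFRB fell (log2 -0.92). The part of these markers in the changes was not tested.

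On the ketogenic diet 3 of 22 interferon-stimulated genes passed with inhibitors, all upward, and none of the other 90 tested genes of the pathway lists, which makes 2.68% of 112 beside the 1.74% of all genes. Of the marker lists LCP1 (log2 2.22) and TTR (log2 3.90) rose, and the ribosomal RNA genes RNA28S5 and RNA45S5 fell. IFIT3 averaged 27.9 ± 3.10 CPM with inhibitors and 15.3 ± 2.72 CPM without (log2 0.86, SE 0.15, edgeR adjusted p = 0.00732). The IFIT3 call held without the 3 libraries of over 30% ribosomal RNA (log2 0.78). It ended with the ribosomal RNA share in the model (log2 0.54, edgeR adjusted p = 0.765), where 0 of 16012 genes passed in edgeR (1029 at an unadjusted p under 0.05). That share did not overlap between ketogenic libraries with and without inhibitors, so this model can hardly tell the share and the inhibitors apart. IFIT2 (log2 0.66) and MX1 (log2 1.04, or 0.59 without ketogenic library 1 with inhibitors) also passed, but 1 or both of these calls ended when ketogenic library 2 or 3 with inhibitors or any of the 4 without was left out, at edgeR adjusted p up to 0.120. Between diets without inhibitors 14 of the 112 passed, or 12.5%, beside 13.5% of all genes. CALR rose (log2 0.71, SE 0.14), EZH2 rose (log2 1.10), and EZH1 (log2 -0.46) and HLA-DQA1 (log2 -1.17) fell, and these calls held without any single library. All 4 ended without the 3 libraries of over 30% ribosomal RNA, and that of EZH1 also with library size alone. The other 10 calls named in that comparison (PSMB6, PDIA3, IFNGR1, ISG15, IFIT2, OAS3, HLA-DPB1, ULBP2, CD276 and TNFRSF14) ended when some single library was left out, at edgeR adjusted p up to 0.154, and each of the 8 libraries ended at least 1. With the ribosomal RNA share in the model 5 of the 14 ended (PSMB6, ISG15, IFIT2, OAS3 and TNFRSF14), and 10.9% of all genes passed. Between diets with inhibitors none of the 112 passed. The inhibitor effect differed between diets for 6 of the 112, or 5.36%, beside 9.02% of all genes. These were EZH1 (0.74), EZH2 (-1.10), HLA-DQA1 (1.65), HLA-DPB1 (0.86), DTX3L (0.66) and CD276 (-0.53), where the calls of EZH1 and HLA-DQA1 held without any single library. The other 4 calls ended when some single library was left out, which was so for 12 of the 16 libraries (edgeR adjusted p up to 0.107), and all 6 ended without the 3 libraries of over 30% ribosomal RNA, where 0 of 16367 genes passed in edgeR (2919 at an unadjusted p under 0.05). All 6 also ended with the ribosomal RNA share in the model, where 0.187% of all genes passed. Scaling on library size alone ended those of EZH1, DTX3L, HLA-DPB1 and CD276.

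**Figure D5:**
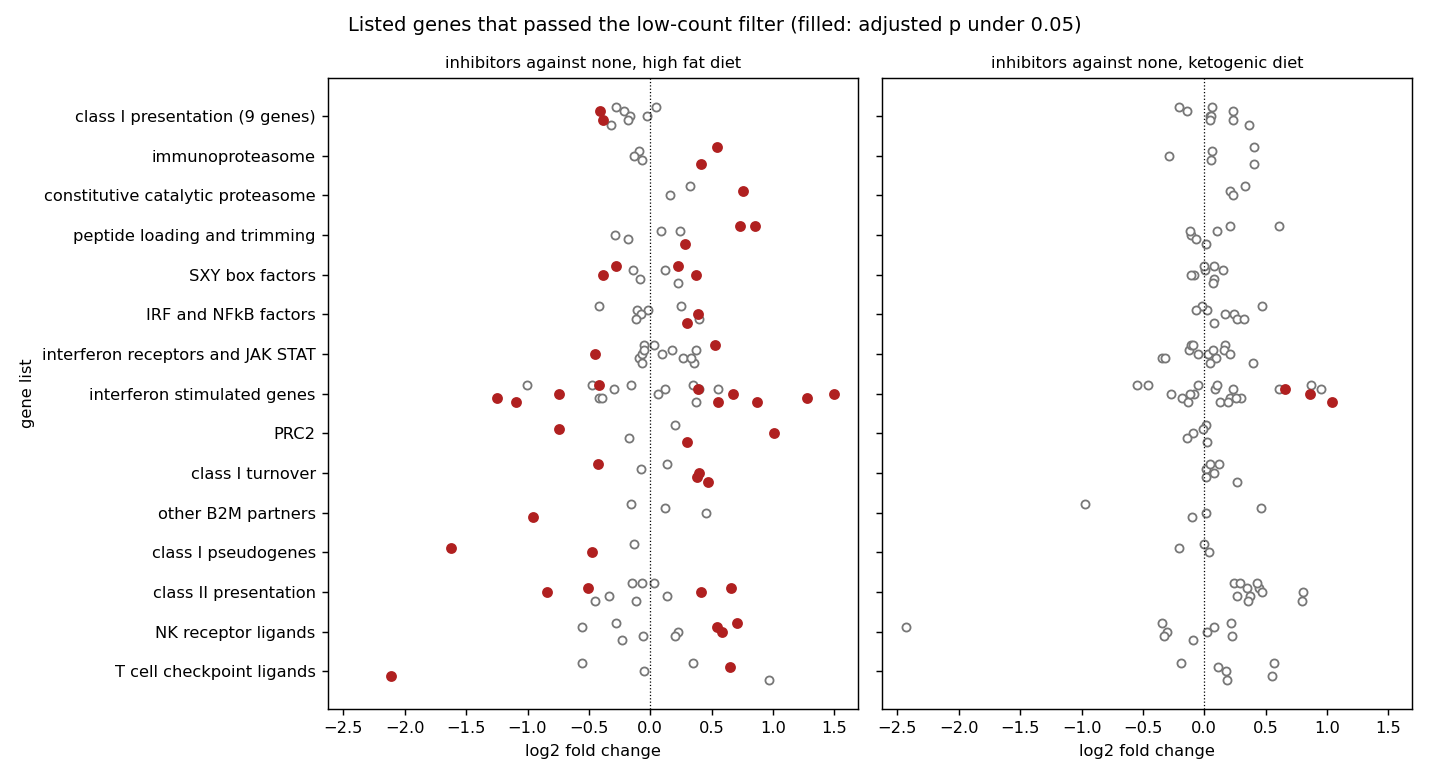
Log2 fold change (x axis) of each listed gene that passed the low-count filter, by list, for inhibitors against none on the high fat diet (left) and on the ketogenic diet (right). Filled points passed an adjusted p of 0.05, and on the high fat diet they lie on both sides of 0 in 7 lists, while only IFIT2, IFIT3 and MX1 are filled on the ketogenic diet.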

How the data were processed

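RNA was poly-A selected, per the labels. The authors' deposited values are expected counts (estimated counts) per gene symbol, not scaled for depth, and 13.0% of them were not whole. Per the submitters' processing notes Bowtie2 2.1.0, RSEM 1.2.15 and hg38 were used, with no role given. Which annotation and strand setting applied, and whether mouse reads were taken out, is not given in the sources used here. Reads of near-identical HLA genes may be divided between them, and reads of the polymorphic HLA-B and HLA-C are read against reference alleles. Counts were rounded, filtered with filterByExpr (16012 of 26475 genes), and TMM-scaled. The model, in edgeR 4.0.16 under R 4.3.3 with robust quasi-likelihood, held 4 group means over all 16 libraries, with 5 comparisons, two-sided tests, Benjamini-Hochberg adjustment over all genes tested and a threshold of 0.05 with no fold minimum. Levels are given as CPM with TMM-scaled library sizes, and per kb on GENCODE principal transcripts. Alternatives used DESeq2 1.42.0, limma 3.58.1, other scalings and filters, a ribosomal RNA covariate, a 1.5-fold minimum, a replicate block and leaving out single libraries. The code was checked on simulated counts. Totals of 37.1 to 77.2 M counts (M, mega) leave sampling error small for the 9 genes, of which the smallest count was 363. The 9 genes and the other lists were chosen with earlier results of these data known. All 9 genes are named, and of each other list up to 3 genes per comparison by smallest p. RFXAP, MARCH9, HLA-DPB1 and PSMB8 with PSMB9 were named beyond that after their values were seen. Replicate numbers were not taken to pair libraries, since 4 of 24 same-numbered pairs had correlated deviations over 0.1.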

Additional observations from a re-analysis of the deposited data

Results flagged for a closer look

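None of the 9 class I presentation genes had a library far from the other 3 of its group, in 36 groups of 4 looked at. Among these and 38 genes of the other lists named by rule, 8 of 188 gene and group pairs had 1 library set apart from its nearest neighbour by more of the group's range than Dixon's 95% critical value, and chance alone flags about 1 in 20. In ketogenic libraries with inhibitors ISG15 had 11.01 CPM in 1 library and 4.35 to 4.61 in the others, MX1 26.8 against 10.8 to 10.9, PSME2 101.7 against 67.9 to 70.9, TAPBPL 7.69 against 5.54 to 5.80, and IFNGR1 13.1 against 15.2 to 15.6. In ketogenic libraries without inhibitors MX1 had 5.91 CPM against 7.61 to 7.71, RFX5 114.6 against 133.6 to 136.1, and HLA-L 8.85 against 6.56 to 6.74.

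The inhibitor effect differed between diets past the threshold in edgeR (difference of log2 folds, ketogenic minus high fat) for CD276 (-0.53), DTX3L (0.66), EZH1 (0.74), EZH2 (-1.10), HLA-DPB1 (0.86) and HLA-DQA1 (1.65). None of the 9 class I presentation genes was among them in edgeR. Over the pathway lists these make 6 of 112 tested genes, or 5.36%, beside 9.02% of all genes.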

How the results depend on the processing

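Every alternative was run on the fit over all genes. Calls among the 9 genes for inhibitors on the high fat diet (2 as reported) numbered 0 with library size alone, 4 with limma voom and quality weights (HLA-E, HLA-F, NLRC5 and TAP1), 1 with ribosomal RNA share in the model, 0 against a 1.5-fold minimum, 1 without the 3 libraries of over 30% ribosomal RNA (an alternative chosen after seeing the data) and 1 to 2 when single libraries were left out. For diet without inhibitors (2) they numbered 0 with library size alone, 0 with no low-count filter, 4 with limma (HLA-E, HLA-F, NLRC5 and TAP2), 0 with the ribosomal RNA covariate, 0 against the 1.5-fold minimum, 0 without the 3 libraries and 0 to 2 without single libraries. For the difference of inhibitor effects (0) they numbered 2 with DESeq2, 1 with limma, 1 with the replicate block and 0 to 2 without single libraries. With limma the share of all genes called was 62.1% for inhibitors on the high fat diet, against 42.3% in edgeR. It was 39.9% against 13.5% for diet without inhibitors and 32.5% against 9.02% for the difference of effects. The limma counts are read against those shares. Both other comparisons stayed at 0 in each alternative run. DESeq2's size factors in edgeR, removal of ribosomal RNA genes and the stricter filter moved none of these counts by over 1.5 times, nor did fitting the compared libraries alone, which could not be done separately for the difference of inhibitor effects. Of the 33 calls named from other lists for inhibitors on the high fat diet, IFIT3 alone held against the 1.5-fold minimum. The share of all genes called also moved by over 1.5 times. For inhibitors on the ketogenic diet (1.74%) it lay between 0.542% and 2.69% without single libraries, moved by ketogenic libraries 1 and 2 with and 1, 2 and 4 without inhibitors. For diet without inhibitors (13.5%) it fell as low as 4.79%, moved by ketogenic libraries 1, 2 and 3 and high fat libraries 1 and 3. For diet with inhibitors (0.169%) it lay between 0.0185% and 0.289%, moved by ketogenic libraries 1, 3 and 4 and high fat libraries 2, 3 and 4. For the difference of effects (9.02%) it lay between 2.51% and 16.2%, moved by ketogenic libraries 1 and 4 and high fat libraries 2, 3 and 4 with inhibitors and by ketogenic libraries 1, 2 and 3 and high fat libraries 1 and 3 without. The causes were not tested.

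The replicate block called HLA-E in the difference of inhibitor effects (log2 0.62, adjusted p = 0.0420) and changed no other call among the 9 genes. Of the named list genes it ended the calls of PDIA3, HLA-J and LGALS9 (inhibitors, high fat diet), IFIT2 and MX1 (inhibitors, ketogenic diet), and PSMB6 (diet, no inhibitors). Replicate numbers were not taken to pair the libraries, with a median correlation of 0.0175 over 24 same-numbered pairs. A low correlation cannot show that the libraries were unpaired.

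Signs turned in values that were called neither way, RFX5 apart. With library size alone the log2 values for inhibitors on the high fat diet were 0.042 for HLA-B, 0.092 for HLA-C, 0.092 for TAPBP, 0.24 for TAP2 and 0.011 for RFX5, for inhibitors on the ketogenic diet 0.13 for TAP1 and 0.066 for NLRC5, for diet without inhibitors 0.037 for HLA-C, and for the difference of effects -0.0059 for B2M. With limma B2M was at -0.0098 and TAP2 at 0.0084 for inhibitors and a high fat diet. With inhibitors and a ketogenic diet limma gave -0.038 for B2M, -0.015 for HLA-B and -0.090 for HLA-C. It gave -0.020 for B2M for diet without inhibitors and -0.028 for the difference of effects. For diet with inhibitors limma gave -0.048 for B2M, -0.12 for HLA-B, -0.074 for HLA-C, -0.0047 for HLA-E, -0.091 for HLA-F and -0.13 for TAP1. The ribosomal RNA covariate gave -0.012 for HLA-B, -0.25 for HLA-C and -0.074 for TAPBP for inhibitors on the ketogenic diet, -0.012 for TAPBP for diet without inhibitors, and -0.017 for HLA-B, -0.14 for HLA-C and -0.061 for TAP1 for diet with inhibitors. Without the 3 libraries of over 30% ribosomal RNA TAPBP was at -0.060 for inhibitors on the ketogenic diet and B2M at -0.039 for the difference.

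Leaving out single libraries turned these signs. For inhibitors on the high fat diet B2M lay between -0.060 and 0.12 and TAP2 between -0.070 and 0.050. For inhibitors in ketogenic libraries HLA-C lay between -0.061 and 0.15, B2M between -0.0044 and 0.11 and TAPBP between -0.054 and 0.12. For diet without inhibitors B2M lay between -0.045 and 0.13 and TAPBP between -0.048 and 0.12, and with inhibitors HLA-C between -0.020 and 0.16 and TAP1 between -0.034 and 0.10. For the difference of effects B2M lay between -0.051 and 0.13 and NLRC5 between -0.063 and 0.19. The number of libraries, 4 a group, limits which small changes can be called.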
